A study of Mus musculus with 12 samples.

Results

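H3K27 acetylation was mapped by CUT&RUN in cardiomyocytes (CMs) that lacked RIP140 and in CMs of littermate controls, and the loci described here are those at which both genotypes carried a single acetylated region that was narrower in the knockout (KO). A locus was taken where exactly 1 control region and exactly 1 KO region overlapped by 1 bp or more and neither touched another region of the other genotype. Both regions had to be under 10000 bp wide and the control region more than 1.5 times as wide as its KO partner. There were 3070 such narrowed loci among 26338 one-to-one loci on chromosomes 1 to 19 and X (11.7%), drawn from 53750 control and 45517 KO regions. The loci were thus chosen by the control and KO widths, which are given as a description, with no test. Position, neighbours, the side of the loss and DNA sequence were not used in the choice and were compared with 18353 one-to-one loci whose widths lay within 1.5-fold of each other and with 4915 loci that were widened in the KO by the mirror rule.

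The mice carried floxed Nrip1 alleles in both groups (Nrip1 f/f). KO mice (csNrip1-/-, Nrip1 f/f Cre+) also carried Cre recombinase under the control of Nkx2.5, a transcription factor gene that is active from early heart development, so the deletion was present throughout cardiac life and was not acute. Controls were Cre-negative littermates (Nrip1 f/f Cre-), so Cre itself was present in 1 genotype only. The mice were 10 to 12 weeks old and 200000 CMs entered each experiment, with 3 H3K27ac and 3 IgG experiments per genotype. The 3 replicates of each genotype had been merged into 1 region list, which leaves no value per replicate, no signal height and no sequencing depth. The P values below therefore describe loci and not mice, and whether a single locus would narrow again in other mice cannot be read from these lists.

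H3K27ac is a histone mark laid down by acetyltransferases such as p300 and CBP at active promoters and enhancers. RIP140, the protein encoded by Nrip1, has no known DNA-binding activity. It is recruited by nuclear receptors, among them the estrogen-related receptors (ERRs) and PPARs, and in turn recruits histone deacetylases and CtBP corepressors. ERRs govern genes of fuel oxidation in the heart, and the paper gives ERRα and ERRγ a part in contractile maturation too. MEF2, GATA, NKX2-5 and TEAD factors govern genes of contraction and cardiac identity. For MEF2A the paper names a role at energy metabolism genes as well.

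Recognition sequences of ERR and MEF2 in narrowed loci with large losses are shown here. ERR is a receptor partner of RIP140, and MEF2 matches were less dense in the lost than in the kept DNA, as described below. The windows were read from the GRCm38 plus strand, 5′ to 3′, and capitals mark the exact match to the consensus, which is TCAAGGTCA or its reverse complement for ERR. The first 5 windows lie in bases that only the control region covered, and the last 2 lie in bases covered in both genotypes.
Gm11096 locus, ERR match within Slc8a1, chr17:81478839-81478919: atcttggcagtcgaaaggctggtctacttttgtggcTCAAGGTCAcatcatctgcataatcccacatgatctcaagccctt
Slc22a5 locus, ERR match, chr11:53889480-53889560: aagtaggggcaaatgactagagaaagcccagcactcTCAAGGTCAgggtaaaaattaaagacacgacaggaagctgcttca
Gm13988 locus, ERR match, chr2:123279404-123279484: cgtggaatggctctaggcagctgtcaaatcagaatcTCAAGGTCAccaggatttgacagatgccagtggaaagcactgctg
Gm37918 locus, MEF2 match within Pkia, chr3:7405946-7406026: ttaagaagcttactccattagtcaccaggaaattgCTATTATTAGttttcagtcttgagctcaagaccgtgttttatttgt
Gm11096 locus, MEF2 match within Slc8a1, chr17:81485084-81485164: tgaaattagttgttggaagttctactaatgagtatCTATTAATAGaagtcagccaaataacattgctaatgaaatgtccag
Gm40660 locus, ERR match in the kept part, chr13:5476872-5476952: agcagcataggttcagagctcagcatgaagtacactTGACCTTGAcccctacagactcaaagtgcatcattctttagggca
Gm23440 locus, MEF2 match in the kept part, chr3:79023871-79023951: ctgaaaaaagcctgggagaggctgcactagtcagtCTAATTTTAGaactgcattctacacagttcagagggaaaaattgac
A locus is named for the gene with the nearest transcription start site (TSS), which is often a pseudogene or noncoding RNA. Slc8a1, whose body holds the Gm11096 locus, encodes the cardiac sodium-calcium exchanger, and that region measured 9723 bp in controls and 4202 bp in KO CMs. A match is a stretch of letters and not a shown binding site. An ERR match lay in the lost bases of 141 of the 3070 loci (4.59%) and in the kept bases of 132 (4.3%). A MEF2 match lay in the lost bases of 101 loci (3.29%) and in the kept bases of 228 (7.43%).

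The targeted gene was read first. The coding sequence of Nrip1 lies in a single exon, which the deletion removes (chr16:76291185-76294667). A control region of 14439 bp covered 2556 of its 3483 bp, and KO regions covered 0 bp. The same gene also held a narrowed locus in an intron, at chr16:76327849-76335005 in controls and chr16:76329600-76332525 in KO CMs, with widths of 7157 and 2926 bp. That locus lies outside the deleted exon and lost bases on both of its sides. The direction was not uniform over the gene. A control region of 1579 bp had a KO partner of 5983 bp (chr16:76337517-76343499), while a control region of 1559 bp had no KO partner. The TSSs of 9 of 10 CM marker genes lay within a region in each genotype, with Nppa the exception in both. Markers of other cells that such preparations can hold were read in the same way. A TSS lay within a region for 1 of 12 fibroblast genes in each genotype, but for Col3a1 in controls and Mmp2 in KO CMs. For macrophage and lymphocyte genes the count was 1 of 11, with Cd14 in both genotypes. For endothelial markers it was 12 of 12 in controls and 10 of 12 in KO CMs (Cdh5 and Cldn5 were the absent ones), and for smooth muscle and pericyte markers 4 and 5 of 10. The part of endothelial chromatin in the narrowed loci was not tested, and fewer cells of a type cannot be told apart from less acetylation per cell in bulk CMs.

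The narrowed loci were of moderate width in controls, with a median of 2832.5 bp, and shrank to a median of 1372 bp in KO CMs. Together they covered 9.9 Mb in controls and 4.99 Mb in KO CMs, of which 4.77 Mb was shared. The median loss was 1364.5 bp and the median width ratio was 1.861. A ratio above 2 was found at 1211 loci (39.4%), above 3 at 278 (9.06%), above 4 at 92 and above 5 at 34, and 26 loci lost more than 5000 bp. At 2168 loci (70.6%) the KO region lay wholly inside the control region. The loss was mostly 1-sided, since 1831 loci (59.6%) had more than 80% of their changed bases on 1 side and 379 (12.3%) had at least 40% on each side. Widened loci gave the same 59.6% for 1-sided change and 13.2% for balanced change. In KO CMs, 819 narrowed loci (26.7%) were under 1000 bp wide, close to the 501 bp that was the smallest region in either list. The narrower region of widened loci, that of the control, was under 1000 bp at 27.5%. At loci within 1.5-fold the share under 1000 bp was 5.73% in KO CMs and 6.47% in controls.

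**Figure D1:**
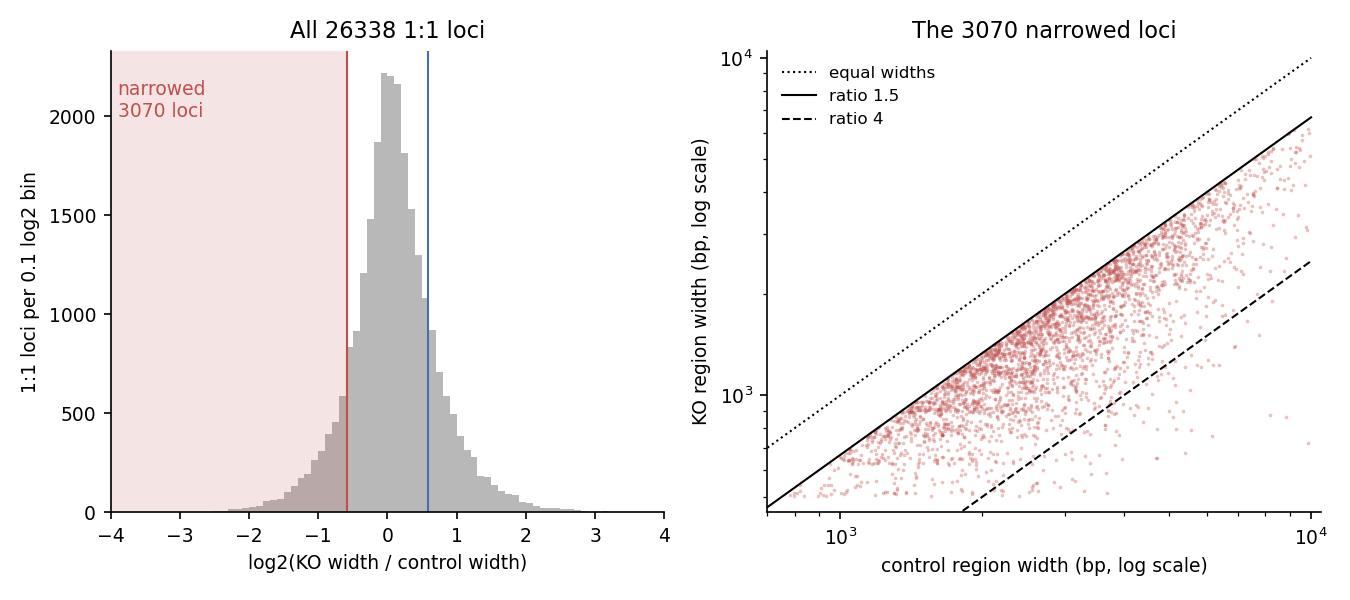
Left, histogram of KO width over control width, on the log2 scale, for the 26338 one-to-one loci, with lines at a 1.5-fold difference either way and the narrowed loci shaded. Right, KO width against control width for the 3070 narrowed loci on log axes, where 92 loci lie below the dashed line of a ratio of 4.

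The edge of the set was not a gap in the data. At the loci just inside the limit, near Pdcd7, Gm5425 and Gm13670, ratios were 1.5002, 1.5003 and 1.5004. The loci just outside, near 9930111H07Rik, N4bp1 and 4930429H19Rik, had ratios of 1.5, 1.5 and 1.4996. The ratio lay at most 0.05 above the limit at 298 loci and at most 0.05 below it at 419. Over all one-to-one loci, KO width over control width had a median of 0.0745 on the log2 scale, so that KO regions were slightly the wider ones in general, and the narrowed loci ran against that shift.

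Each deposited region name ends in a number of at least 2, read here as the count of replicate peaks merged into the region, and this number moved with the width. Its part in the narrowing was not tested beyond the counts that follow. The control region was built from more peaks than the KO region at 906 narrowed loci (29.5%), from the same number at 1933 (63%) and from fewer at 231 (7.52%). Narrowed loci made up 19.3% of all one-to-one loci with more peaks in the control, 12.1% of those with the same number and 4.05% of those with fewer. Among loci with 2 peaks in both genotypes, 1727 of 12292 (14%) were narrowed and 20.9% were widened. The comparisons of promoter share, control-only neighbours, side of loss, and motifs against loci within 1.5-fold were therefore repeated in loci with equal numbers of merged peaks, and the other comparisons were not.

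The narrowed loci with the most bases lost were mainly distal. Among them was a locus near the pseudogene Gm5620 (8840 and 862 bp, with no protein-coding TSS closer than that of Zic4 at 271573 bp) and another in an intron of the lincRNA Gm40660 (8196 and 872 bp, with Klf6 at 384703 bp). A locus in an intron of Slc7a1, a transporter of cationic amino acids, went from 9741 to 3155 bp. A further locus lay 40386 bp from the TSS of Mrtfb, which encodes a coactivator of serum response factor, and went from 8865 to 2548 bp.

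Some of these loci carried the name of a noncoding gene but lay inside the body of a gene of cardiac interest. The locus named for the microRNA gene Mir6419 lay within Nebl, which encodes the Z-disc protein nebulette, and measured 8190 bp in controls and 2336 bp in KO CMs. The Gm24294 locus lay within Fhod3, which encodes a formin that acts on sarcomeric actin (7752 and 1513 bp). The Gm15713 locus lay within Zbtb20, a zinc finger repressor gene (9782 and 3094 bp), and the Gm37918 locus within Pkia, which encodes an inhibitor of protein kinase A (9255 and 2939 bp). Further loci of this group were near Gm7799, Gm23440 and Prr30. Ranked by ratio instead, the top 10 also held loci in or near Gm9290 (8.1319), Adarb1 (7.9705), Ldb2 (7.2239), Irgm2 (7.1868), Pde8a (7.1809), Bmpr1a (7.0341) and Cyyr1 (6.5013). Of these, the locus at Bmpr1a, which encodes a receptor for bone morphogenetic proteins, was the one in a promoter, and it went from 5571 to 792 bp.

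**Figure D2:**
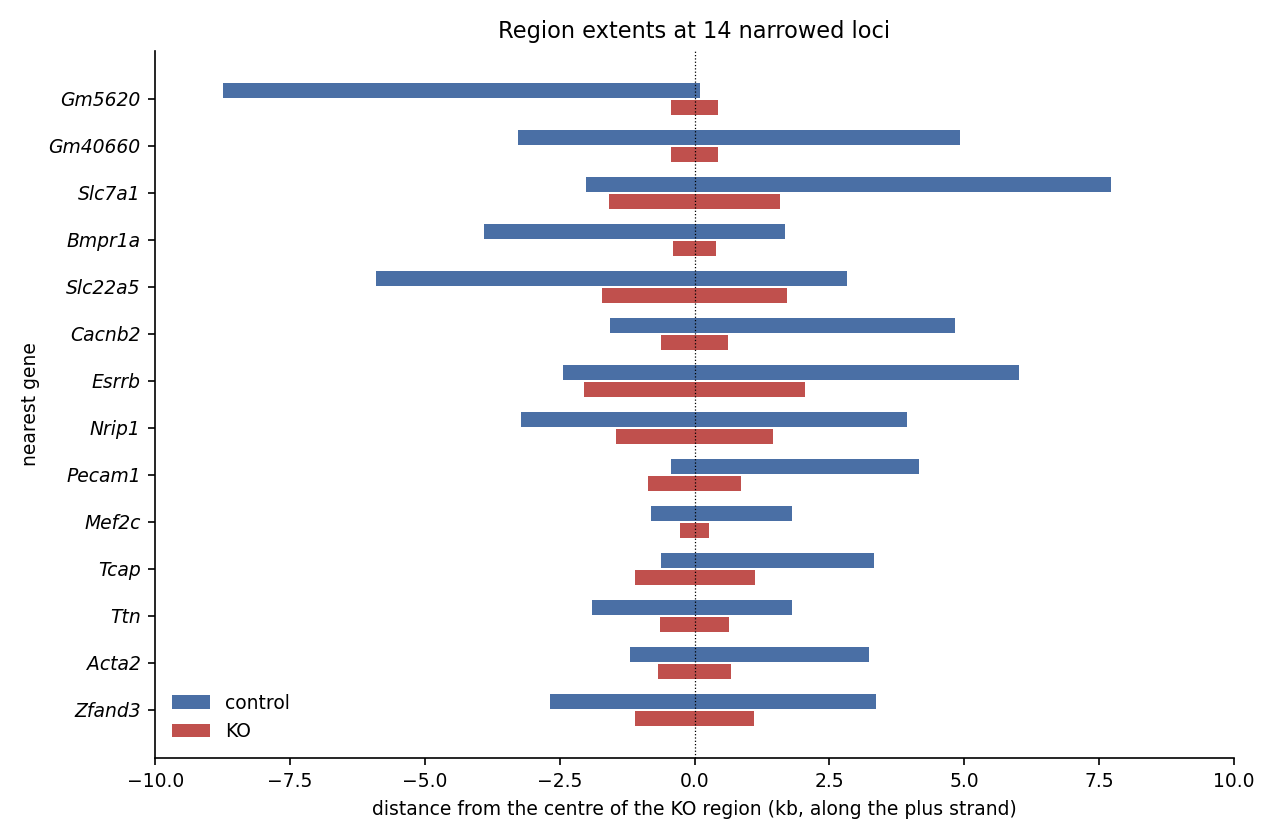
Extent of the control region (blue) and of the KO region (red) at 14 narrowed loci, in kb from the centre of the KO region along the plus strand, labelled by nearest gene. The control region at Slc7a1 reached 6149 bp farther than the KO region on the right, while at Gm40660, Nrip1 and Ttn bases were lost on both sides.

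Narrowed loci lay less often in promoters, and more often in introns and intergenic DNA, than the loci they were compared with. The centre of the overlap lay in a promoter, from 1000 bp upstream to 100 bp downstream of a TSS, at 404 of 3070 narrowed loci (13.2%, 95% Wilson interval 12 to 14.4). It did so at 22.8% of loci within 1.5-fold (22.2 to 23.4) and at 18.6% of widened loci (17.5 to 19.7). The odds ratio was 0.512 against the loci within 1.5-fold (0.459 to 0.572, adjusted P = 9.59e-36, by a 2-sided exact test of Fisher over loci with Benjamini-Hochberg adjustment for 7 classes). Against widened loci it was 0.663 by the same exact test (0.584 to 0.753, adjusted P = 9.22e-10). In exact tests of the other classes, introns held 52.8% of narrowed loci, compared with 44.3% of loci within 1.5-fold (adjusted P = 9.38e-18) and 49% of widened loci (adjusted P = 0.00234). Intergenic positions held 26.9%, compared with 23.3% (adjusted exact P = 5.37e-05) and 23.5% (adjusted exact P = 0.00205). Coding and noncoding exons held 2.44%, compared with 3.84% of loci within 1.5-fold (adjusted exact P = 0.000128) and 2.81% of widened loci (adjusted exact P = 0.495).

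Read the other way, 7.34% of promoter loci were narrowed (6.68 to 8.05), compared with 13.3% of intronic (12.7 to 13.9) and 13.2% of intergenic loci (12.4 to 14). The share was 7.14% for loci in 5′ UTRs (4.51 to 11.1) and 8.18% for loci in exons (6.57 to 10.1), and both intervals overlapped that of promoters. The median distance to a TSS was 9708 bp for narrowed loci, 4472 bp for loci within 1.5-fold and 6728 bp for widened loci. When narrowing did occur at a promoter it removed a median of 1240 bp, compared with 1419 bp in introns and 1306 bp in intergenic DNA. The central 200 bp of narrowed loci had a median GC content of 46%, and those of loci within 1.5-fold 48.5%. In loci with equal numbers of merged peaks the promoter odds ratio was 0.475 against loci within 1.5-fold and 0.724 against widened loci.

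**Figure D3:**
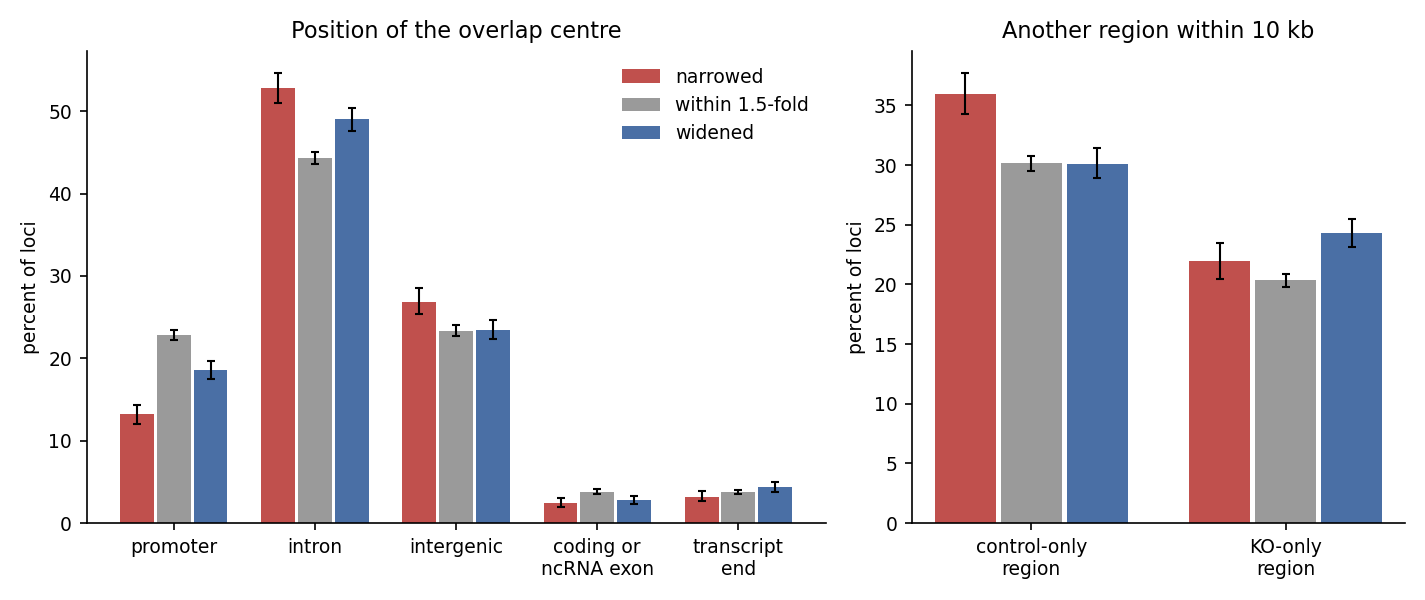
Left, percent of narrowed, little-changed (within 1.5-fold) and widened loci by the position of the overlap centre, with promoters at 13.2, 22.8 and 18.6%. Right, percent with a control-only or KO-only region within 10 kb, with control-only regions at 36, 30.2 and 30.1%, and error bars in both panels are 95% Wilson intervals over loci.

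Narrowed loci more often had a lost region nearby. A control-only region, that is one with no overlapping KO region, lay within 10000 bp of 1105 narrowed loci (36%, 34.3 to 37.7). The share was 30.2% for loci within 1.5-fold (odds ratio 1.3, 1.2 to 1.41, adjusted P = 6.45e-10, 2-sided exact test with Benjamini-Hochberg adjustment for 4 comparisons) and 30.1% for widened loci (odds ratio 1.3, 1.18 to 1.43, adjusted P = 1.26e-07). A KO-only region lay within that distance of 22% of narrowed loci, 20.4% of loci within 1.5-fold (adjusted exact P = 0.0428) and 24.3% of widened loci (adjusted exact P = 0.0259). Genotype-specific regions were also counted separately for each locus they neighboured, so a region near several loci entered more than 1 time. Of the 2213 such counts around narrowed loci, 65.5% were control-only. The share was 61.9% around loci within 1.5-fold and 56.8% around widened loci. A next one-to-one locus lay within 25000 bp after 1550 narrowed loci, and for 14.1% of these it was itself narrowed (12.4 to 15.9). The share was 11% for 8776 such loci within 1.5-fold (10.4 to 11.7) and 11.7% for 2486 such widened loci (10.5 to 13.1). In loci with equal numbers of merged peaks the odds ratio for a control-only neighbour lay between 1.12 and 1.38 against loci within 1.5-fold (exact P = 3.53e-05) and between 1.01 and 1.29 against widened loci (exact P = 0.0357, both without adjustment).

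At 390 narrowed loci the KO region held the TSS of exactly 1 protein-coding gene, which gives the lost bases a direction. More bases were lost downstream of the TSS, into the gene, at 272 of them (69.7%, 65 to 74.1) and upstream at 118. The downstream edge of the region lay a median of 1732 bp from the TSS in controls and 775.5 bp in KO CMs, and the upstream edge 1121 and 776.5 bp. Thus, at narrowed loci, control regions reached farther into the gene than away from it, and KO regions were nearly symmetrical. At widened loci the median upstream and downstream edges lay at 738 and 774 bp in controls and 1152 and 1642 bp in KO CMs. The narrower region was thus the nearly symmetrical one in both sets. At loci within 1.5-fold these edges lay at 1033 and 1330 bp in controls and 1051 and 1366 bp in KO CMs. Widened loci were the mirror image, with 66.9% of 953 changed mostly downstream (odds ratio 1.14, 0.882 to 1.47, P = 0.335, 2-sided Fisher's exact test), so a difference in side between narrowed and widened loci was not detected. At 1000 bp downstream of the TSS the region covered 79.2% of the narrowed TSS loci in controls and 34.9% in KO CMs, and at 1000 bp upstream 58.7 and 32.8%.

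**Figure D4:**
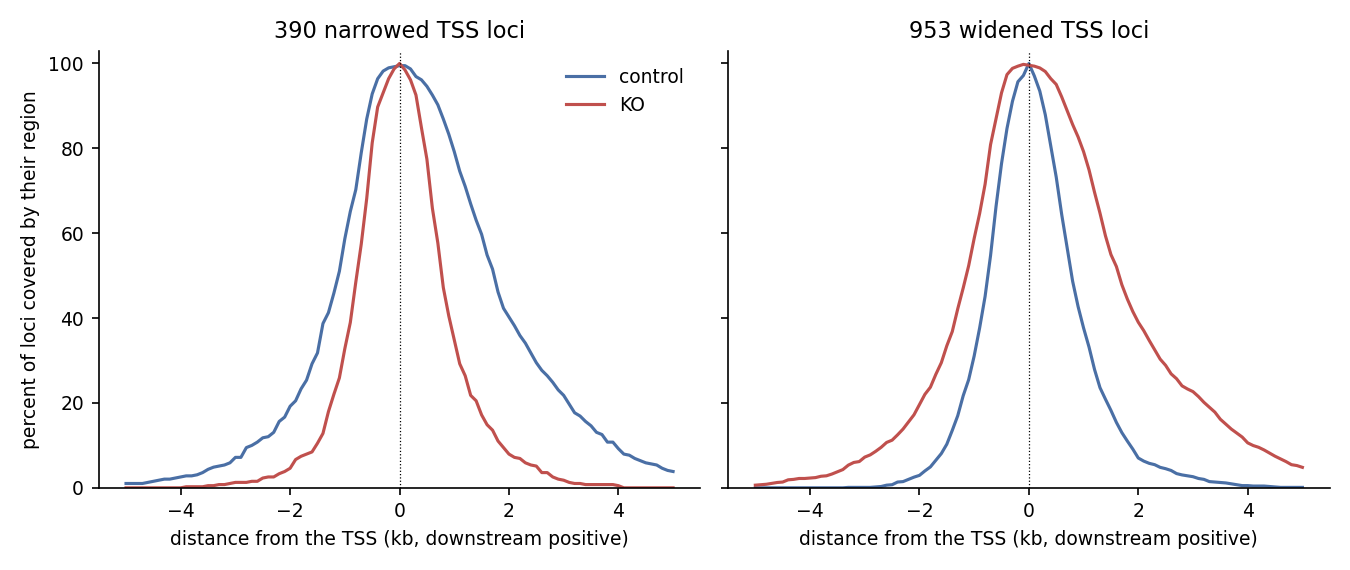
Percent of TSS loci whose region covers each position from 5 kb upstream to 5 kb downstream of the TSS, for control (blue) and KO (red) regions at 390 narrowed (left) and 953 widened (right) loci. Loci were chosen to hold the TSS in the narrower region, so both curves reach their top there. At narrowed loci the blue curve has a longer downstream shoulder.

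Among TSS loci, the largest losses were at Slc22a5, Cacnb2 and Lcmt1. At the promoter of Slc22a5, which encodes the carnitine transporter OCTN2, the region went from 8737 to 3441 bp, with 4188 bp lost downstream and 1108 bp upstream of the TSS. At a promoter of Cacnb2, which encodes a regulatory beta subunit of voltage-gated calcium channels, it went from 6389 to 1232 bp, with 4209 bp lost downstream. The Esrrb region, at the gene of the receptor ERRβ, went from 8469 to 4103 bp with 3970 bp lost downstream. At Lcmt1, a methyltransferase gene that acts on protein phosphatase 2A, the loss was mainly upstream (3836 and 1024 bp). Regions at Dhrs7, Gm12216, Bambi, Tspyl4, Dhx15, 4921504E06Rik, Ak3 and Clic1 completed the 12 TSS loci with the most bases lost, with losses of 4530, 4336, 4207, 4107, 4076, 4027, 3932 and 3681 bp. Bambi encodes a decoy receptor of TGFβ and BMP signalling.

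Matches to 9 consensus motifs were counted in the central 200 bp of each overlap, on both strands. Besides ERR and MEF2 they were AGATAAG for the GATA factors, CACTTAA for the homeodomain factor NKX2-5, CATTCCA for the TEAD factors and TGANTCA for the AP-1 dimers of Fos and Jun. The SRF CArG box, the PPAR direct repeat and the glucocorticoid receptor palindrome completed the set, and the ERR motif shares part of its letters with the PPAR repeat. A GATA match lay in 128 narrowed loci (4.17%, 3.52 to 4.94), compared with 2.89% of loci within 1.5-fold (odds ratio 1.46, 1.2 to 1.78, adjusted P = 0.0021, 2-sided exact test with Benjamini-Hochberg adjustment for 9 motifs), 3.66% of widened loci (adjusted P = 0.666) and 3.18% of all one-to-one loci. This call was lost when loci were compared within bins of GC content (Mantel-Haenszel odds ratio 1.3, adjusted P = 0.085, n = 3070 narrowed loci). The other 8 motifs did not pass the threshold against either set. ERR matches lay in 0.651% of narrowed loci, 0.561% of loci within 1.5-fold and 0.649% of all (adjusted exact P = 0.79). MEF2 matches lay in 1.63, 1.2 and 1.29% (adjusted exact P = 0.198), and AP-1 matches in 6.81, 5.94 and 6.14% (adjusted P = 0.198). The PPAR motif lay in 0 narrowed loci, with a Wilson upper bound of 0.125%, and in 6 loci of all.

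The lost bases differed from the kept bases of the same loci in composition. The 5.13 Mb that only the control regions covered had 43% GC and 23.8% repeat-masked sequence, and the 4.77 Mb kept in both genotypes had 45.2 and 18.5%. Widened loci differed in the same way, with 45.1% GC and 22.8% repeat-masked sequence in gained flanks and 47.3 and 17.8% in kept bases. MEF2 matches occurred 20.3 times per Mb in the lost and 50.3 times per Mb in the kept bases. ERR matches were nearly even, at 28.4 and 28.9 per Mb, as were GATA matches at 162 and 157 and SRF matches at 55.1 and 51.6. The flanks gained by widened loci were alike in this, with MEF2 at 23.1 per Mb in the gained and 46.1 in the kept bases, so a lower MEF2 density was seen in changed flanks of either direction. These densities were not tested.

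Most narrowed loci stood alone at their gene. They were nearest to 2678 of the 15617 genes that had any one-to-one locus (17.1%), and 2358 of these genes had 1 narrowed locus. Of the 2678 genes, 702 also had a widened locus and 1976 did not. Cnksr3 and Ctbp2 had 6 narrowed loci each, Pde4d, Rora and Zfand3 had 5, and Cobll1, Ghr, Pde4b, Tln2 and the pseudogene Ybx1-ps2 had 4. These genes were picked for their narrowed loci, so the summed lengths given for them below include widths that chose them. Those sums are a description and no separate evidence of a loss at the gene. Region numbers given for these genes stand beside 53750 control and 45517 KO regions in all.

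Ctbp2 encodes a corepressor that RIP140 binds directly. Of its 9 one-to-one loci, 6 were narrowed, 1 was within 1.5-fold and 2 were widened. The narrowed ones comprised a promoter locus (2029 and 1093 bp) and 5 intronic loci whose control widths ranged from 1696 to 3055 bp and KO widths from 797 to 1480 bp. Summed over all regions whose own centre was nearest to a Ctbp2 TSS, one-to-one or not, acetylated length was 47874 bp in 20 control regions and 39263 bp in 16 KO regions. All 6 loci also lie within the annotated body of Fgfr2.

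Pde4b and Pde4d encode phosphodiesterases that limit cyclic AMP signalling. Pde4b had 4 narrowed and 0 widened loci, with 194683 bp in 45 control regions and 161231 bp in 34 KO regions. Of its regions, 18 were control-only and 6 KO-only. Control-only regions were also the more common kind around loci within 1.5-fold, at 61.9% of the genotype-specific regions counted within 10000 bp. The share over all regions was not worked out, and the Pde4b counts were not tested. The largest change among the narrowed loci of Pde4b was at an intron locus that went from 3320 to 1019 bp. Pde4d had 5 narrowed, 12 little-changed and 7 widened loci, and its total length was 94835 bp in controls and 94416 bp in KO CMs.

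Rora, a nuclear receptor gene of circadian and metabolic control, had 5 narrowed and 5 widened loci, with 151639 bp in 54 control regions and 128536 bp in 43 KO regions. One of its narrowed loci lay 1092 bp from a TSS and went from 5225 to 2780 bp. Ghr, the growth hormone receptor gene, had 4 narrowed loci and 1 widened locus, with 99929 and 87624 bp in total. Its intronic loci of 4388, 4499 and 4320 bp went to 1638, 1873 and 1851 bp. Zfand3 had 5 narrowed and 0 widened loci but equal totals (74768 and 75214 bp), while Tln2, which encodes the integrin-linked protein talin 2, went from 44329 to 37656 bp. At Cnksr3, a scaffold gene of aldosterone-responsive signalling, 6 loci were narrowed and 3 widened, with 64186 and 59140 bp in total.

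Of 57 one-to-one loci nearest to the 50 listed genes of fatty acid metabolism, 3 were narrowed (5.26%, 1.81 to 14.4) and 15 widened (26.3%), compared with 11.7% and 18.7% of all one-to-one loci. Lpin1, which encodes a phosphatidate phosphatase and coactivator, had a locus 35304 bp from its TSS that went from 3091 to 1081 bp. The promoter region of Etfdh, which passes electrons from fatty acid oxidation to ubiquinone, went from 3959 to 2258 bp and was the only region at that gene. Near Gpam, an acyltransferase gene of triglyceride synthesis, a region went from 1921 to 1170 bp, although the regions of the gene in sum went from 11764 to 25630 bp.

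Of 63 loci of the TCA cycle, oxidative phosphorylation and branched-chain amino acid genes, 5 were narrowed (7.94%, 3.44 to 17.3) and 9 widened. Promoter regions were narrowed at Suclg1, a subunit of succinyl-CoA ligase (4371 and 2572 bp), and at Ndufs1, a core subunit of complex I (3538 and 1837 bp). Regions away from promoters were narrowed at Mccc1, of leucine breakdown (3102 and 1797 bp), at Suclg2 (1811 and 901 bp) and near Cox5a, of complex IV (1645 and 762 bp). The Suclg2 locus was an intronic one 53688 bp from the TSS.

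Sarcomere and Z-disc genes had 3 narrowed loci of 54 (5.56%, 1.91 to 15.1) and 18 widened ones (33.3%). An intronic Ttn locus went from 3707 to 1291 bp, Ttn being the gene of the giant spring protein titin. The region at the promoter of Tcap, which encodes the titin cap, went from 3938 to 2224 bp with 2207 bp lost downstream of the TSS, and its KO region was built from 4 peaks compared with 3 in the control. An intronic Fhl2 region of 820 bp went to 542 bp. The paper places Tcap, Adra1a, Suclg2 and Gpam among genes near regions whose H3K27ac signal was increased in KO CMs. Width does not measure signal, and those calls were not compared with the widths.

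Calcium handling, ion channel and adrenergic genes had 17 narrowed loci of 124 (13.7%, 8.74 to 20.9), spread over 13 genes, and 30 widened ones. Besides Cacnb2, the largest losses were at S100a1, a calcium sensor gene (6511 and 3887 bp), and at Casq2, which encodes the calcium-storing protein calsequestrin (4939 and 2494 bp). An intronic locus of Adra1a, the α1A-adrenergic receptor gene, went from 2215 to 1182 bp. The share of this list was near that of all one-to-one loci.

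Cardiac transcription factors and coregulators had 15 narrowed loci of 131 (11.5%, 7.06 to 18), near the 11.7% of all loci, and 36 widened ones. Besides Esrrb and Nrip1, a locus of Esrrg, which encodes the receptor ERRγ, went from 5311 to 3159 bp, and a locus of Nfia from 5866 to 3646 bp. An intronic region of Mef2c went from 2617 to 551 bp, a ratio of 4.75. Of the histone deacetylase genes in this list, Hdac4 and Hdac9 had narrowed loci and Hdac3 and Hdac5 did not. The share for these genes alone was not worked out. Hdac9 had narrowed regions of 2326 and 1901 bp that went to 631 and 518 bp, and Hdac4 had regions of 5592 and 4453 bp that went to 3608 and 2469 bp. The summed length at Hdac9 was nearly the same in both genotypes (90027 and 88846 bp), and at Hdac4 it was larger in KO CMs (67756 and 78915 bp).

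Stress and fetal genes had 1 narrowed locus of 20 (5%) and 7 widened ones (35%). The narrowed locus was at Gdf15 (2856 and 1460 bp), which encodes a stress-induced cytokine. Immediate early genes had 0 narrowed loci of 32, with a Wilson upper bound of 10.7%, and 5 widened ones. Among markers of other cells, endothelial genes had 5 narrowed (15.2%, 6.65 to 30.9) and 14 widened loci of 33. The narrowed ones were an intronic region of Pecam1, an endothelial adhesion gene (4594 and 1721 bp), an exonic region of Kdr, which encodes the VEGF receptor (2766 and 936 bp), and regions of the angiopoietin receptor gene Tek (3515 and 1655, 3506 and 1915, and 2584 and 1220 bp). The smooth muscle actin gene Acta2 had a promoter region that went from 4432 to 1365 bp, and Abcc9 a region that went from 2884 to 1659 bp. These were 2 of 11 loci of smooth muscle and pericyte markers (18.2%), and 2 others were widened. The 10 CM markers were nearest to 2 one-to-one loci, of which 0 were narrowed, fibroblast markers to 4 and macrophage and lymphocyte markers to 2, with 0 narrowed in each. The counting intervals of all lists but that of the immediate early genes included the 11.7% of all loci, no list was tested, and nothing is read from them beyond these counts.

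**Figure D5:**
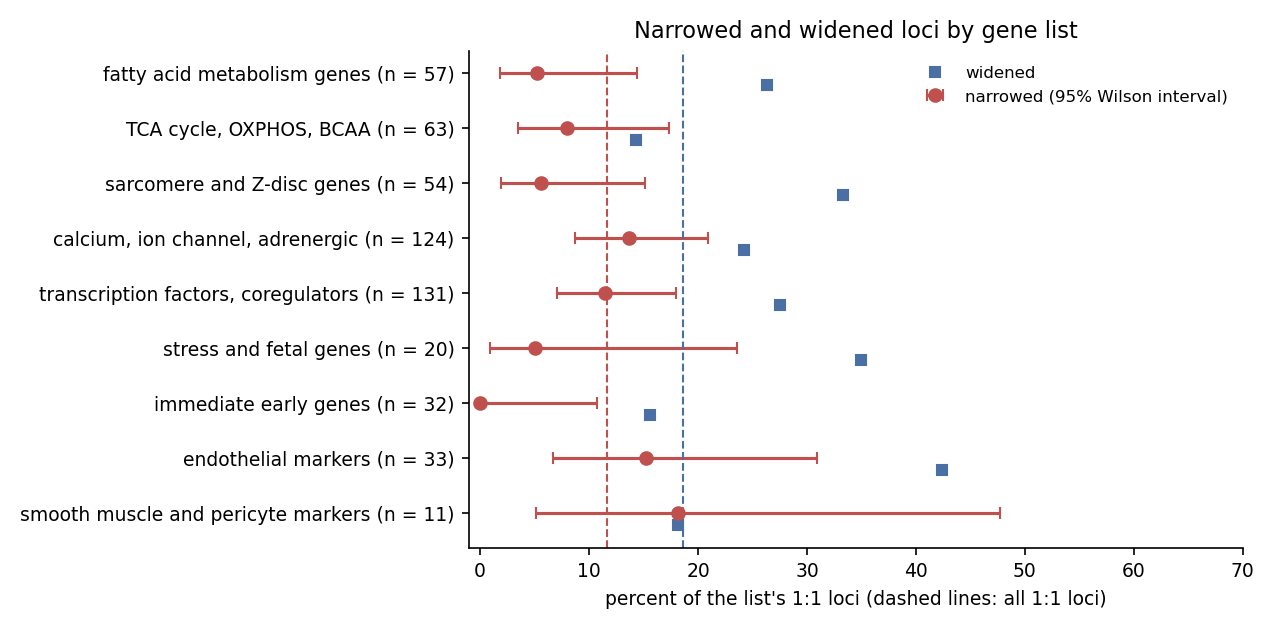
Percent of one-to-one loci that were narrowed (red circles, 95% Wilson intervals) or widened (blue squares) for each gene list with at least 10 loci, with dashed lines at the values of all one-to-one loci. Narrowed shares ranged from 0 for immediate early genes to 18.2% for smooth muscle and pericyte markers.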

How the data were processed

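H3K27ac CUT&RUN was done in CMs of csNrip1-/- mice and littermate controls, with 3 H3K27ac and 3 IgG replicates per genotype, grouped by the labels. Reads had been mapped to GRCm38 (bowtie2 2.4.2) and freed of duplicates (samtools) by the authors, who called regions per replicate against IgG (Homer 4.11.1) and kept merged regions present in at least 2 of 3. The deposited lists, 1 per genotype, give start, end, a name and a score that is 1 in every row and was not used. Depth is unknown, and intervals cover counting over loci only. Genes and classes came from GENCODE M21, whose build the region ends fit, and sequences from RefSeq's GRCm38 assembly. Shares were compared by Fisher's exact tests, 2-sided, with a Benjamini-Hochberg threshold of 0.05 (Python 3.11.15, scipy 1.17.1, statsmodels 0.14.6), tested on simulated data. Named loci were the 12 with the most bases lost, 12 such at a coding TSS, the 10 largest ratios, genes with 4 or more loci, genes named in the study, up to 5 genes per list and loci at the limit, and some loci that this rule names are not reported here. Members, lists and motifs were chosen with earlier results of these data known. Alternatives changed the ratio, overlap, width limits, merged-peak number, promoter bounds, distance and motif window.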

Additional observations from a re-analysis of the deposited data

How the results depend on the processing

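The number of narrowed loci was 3010 with an overlap of at least 50% of the shorter region, 3091 without an upper width limit, 2251 with both regions at least 1000 bp (9.95% of the one-to-one loci left), 1933 with equal numbers of merged peaks (12.1%) and 3700 with KO widths scaled to a median log2 ratio of 0 (14%). A ratio over 2 left 1211 loci (4.6%) and a ratio limit midway between 1 and 1.5 gave 5623 (21.3%). The lower promoter share kept its direction, with P below the threshold before adjustment, in all 7 alternatives against loci within 1.5-fold (odds ratios 0.371 to 0.519) and in all 3 against widened loci (0.662 to 0.724). The control-only neighbour result did so in 5 alternatives each (1.23 to 1.45 and 1.14 to 1.3), the weakest being equal numbers of merged peaks against widened loci (exact P = 0.0357 without adjustment). The side of the loss at TSSs stayed short of the threshold. The motif results were the least stable. With a 500 bp window 3 motifs passed the threshold (GATA, MEF2 with an odds ratio of 1.39 and AP-1 with 1.2), and within GC bins 0 did, where GATA had an adjusted P of 0.085 and PPAR had too few matches to be run. Over the alternatives for GATA, adjusted P ranged from 0.000819 to 0.085. Directions of motifs that never passed the threshold turned: with equal numbers of merged peaks ERR went to 0.934, NKX2-5 to 1.08 and PPAR to 1.9, and SRF went to 0.969 with a 500 bp window, 0.989 outside promoters and 0.957 within GC bins, while NKX2-5 went to 1.01 with a 500 bp window. The causes were not tested. Ratios over 2 and scaled widths for the promoter share, the alternatives against widened loci for the promoter share, and scaled widths or non-promoter loci for neighbours, together with equal merged peaks for motifs, were chosen after seeing the data. No paired analysis was possible because each genotype was deposited as 1 merged list, and for the same reason no replicate could be left out. Without depth or signal, a region that lost acetylation without losing width is not seen here.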

Other observations

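Narrowed loci were spread over all 20 chromosomes examined. Their share of one-to-one loci ranged from 9.15% on chromosome 19 (7.28 to 11.4) to 14.1% on chromosome 12 (12.2 to 16.2) among autosomes. On the X chromosome 37 of 594 loci were narrowed (6.23%, 4.55 to 8.47), and 10.1% were widened, compared with 18.7% of all one-to-one loci, so that both shares were lower there. The X was not tested against the autosomes.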
